A study of Mus musculus with 6 samples.

Results

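The 6 mature arms of the miRNA hairpins mir-216a, mir-216b and mir-217 were followed in small RNA libraries of mouse pancreatic islets, the small endocrine bodies of the pancreas that release insulin and glucagon. They were taken by name from the 1011 rows of the count table, which hold 958 named mouse miRNAs and 53 predictions, and all 6 were listed. The libraries came from mice fed HFD (3 libraries) and mice fed NCD (3 libraries), diets written here as the labels give them. The labels describe the cells as primary islets and name neither a strain, an age nor the way in which the islets were freed from the pancreas. Whether a library is 1 mouse or a pool is not stated either, so p-values measure the spread between these libraries, which may be technical.

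The acinar cells, which make digestive enzymes, surround the islets and form most of the pancreas. The miR-216 and miR-217 hairpins lie together in the genome and their products are enriched in acinar cells, which is why miR-217 and miR-216a in plasma have served as markers of acinar injury in rodents. In islet preparations their reads are commonly read as a trace of exocrine tissue. In bulk RNA, fewer acinar cells and less miRNA per acinar cell cannot be told apart. Nor can the reads be assigned to acinar or endocrine cells. No acinar library was available here to turn reads into a share of cells.

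The 6 arms are shown first because their seeds set which of them can be treated as relatives. Each is printed 5′ to 3′ with its seed, bases 2 to 8, in capitals. All 6 RefSeq sequences were identical to those deposited beside the counts.
mmu-miR-217-5p: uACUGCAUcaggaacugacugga
mmu-miR-217-3p: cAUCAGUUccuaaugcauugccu
mmu-miR-216a-5p: uAAUCUCAgcuggcaacuguga
mmu-miR-216a-3p: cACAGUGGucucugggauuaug
mmu-miR-216b-5p: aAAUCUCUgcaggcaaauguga
mmu-miR-216b-3p: aCACUUACcuguagagauucuu

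No other mouse row of the table had the full seed of any of the 6 arms. miR-216a-5p and miR-216b-5p shared bases 2 to 7 and differed at base 8, and no further mouse row had those 6 bases at that place. Their sequences were identical at 18 of 22 positions, so each could be told from the other by its reads. miR-217-5p was unrelated to both, with 6 of 22 identical positions against each.

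All 3 hairpins lie on the plus strand of chromosome 11 (RefSeq, GRCm38.p6) within 17645 bases. The mir-216b hairpin spans 28746191 to 28746276, mir-216a follows 10735 bases downstream from 28757012 to 28757083, and mir-217 another 6644 bases downstream from 28763728 to 28763835. In the GENCODE annotation of the same build, mir-216a and mir-217 lie in an intron of the long non-coding gene Gm12082. mir-216b lies outside that gene and overlaps mir-216c, a hairpin annotated on the opposite strand. RefSeq lists other long non-coding genes over the locus. Mir217hg, from 28730633 to 28751781, covers the position of mir-216b. Gm40818, from 28754078 to 28772168, covers those of mir-216a and mir-217. No source used here gives the genome build used for counting.

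The mir-216b hairpin and its antisense partner are printed because they bear on 1 of the 6 counts, with the annotated mature arms in capitals.
mir-216b (plus strand, chr11:28746191-28746276): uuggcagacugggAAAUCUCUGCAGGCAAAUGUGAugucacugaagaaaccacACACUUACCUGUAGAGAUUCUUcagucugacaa
mir-216c (minus strand, chr11:28746198-28746266): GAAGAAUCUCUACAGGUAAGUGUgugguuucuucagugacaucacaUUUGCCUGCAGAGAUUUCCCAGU

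Library totals ran from 7166712 to 11172255 reads, so that 3 reads, the most that a count of 0 allows, came to 0.269 to 0.419 CPM on raw totals. The TMM factors, which rescale each total to the bulk of miRNAs, lay between 0.84 and 0.995 in 5 libraries and at 1.73 in NCD 3. The islet miRNA miR-375-3p made up 23.2% to 35.1% of HFD reads and 29.6% to 43.8% of NCD reads, so the defining islet miRNA was present in every library. Levels are given below as raw CPM, counts scaled to the raw total, and as CPM or TMM CPM where the total was scaled by the TMM factor. Intervals cover counting error only.

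miR-217-5p was the most abundant of the 6 arms, with 77.6% of their reads, and it differed more between libraries of the same diet than between the diets. It had 15.2, 95.95 and 165 raw CPM in HFD 1, 2 and 3, against 76.9, 121 and 545 raw CPM in NCD 1, 2 and 3. HFD 1 was the lowest library and NCD 3 the highest, and the other 4 alternated between the diets. The exact 95% binomial intervals of the 6 libraries did not overlap, running from 12.9 to 17.7 in HFD 1 and from 529 to 561 in NCD 3. On the TMM scale the same libraries had 18.04, 114 and 166 CPM with HFD, against 81.7, 139 and 315 CPM with NCD. The highest library was thus 35.9-fold above the lowest on raw totals and 17.4-fold above it after TMM scaling.

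miR-216b-5p, with 20.4% of the reads of the 6 arms, followed the same order at its ends. It had 1.78, 18.2 and 35.3 raw CPM in HFD 1, 2 and 3, and 24.0, 28.6 and 167 raw CPM in NCD 1, 2 and 3. HFD 1 was again lowest and NCD 3 highest, and the diets overlapped. Counting intervals of the 4 middle libraries touched their neighbours, for example 15.6 to 21.2 in HFD 2 and 20.5 to 27.9 in NCD 1. The highest library was 93.6-fold above the lowest on raw totals and 45.5-fold above it on the TMM scale.

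The arms of mir-216a were scarce. miR-216a-3p was counted 0, 18 and 27 times in HFD 1, 2 and 3, against 13, 14 and 59 times in NCD 1, 2 and 3. miR-216a-5p, the arm with the seed related to that of miR-216b-5p, was counted 0, 8 and 10 times with HFD, against 13, 5 and 38 times with NCD. HFD 1 held no read of either arm and NCD 3 held the most of both. The diets overlapped for both arms.

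The remaining arms were close to the detection limit. miR-217-3p, the strand opposite miR-217-5p in its hairpin, had 1 read in HFD 3, 2 reads in NCD 3 and none in the other 4 libraries. miR-216b-3p had 8 reads in HFD 3 and 0 in HFD 1 and HFD 2, against 3 reads in NCD 1, 10 in NCD 2 and 0 in NCD 3. For miR-216b-3p the library with most locus reads, NCD 3, was among those at 0.

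**Figure D1:**
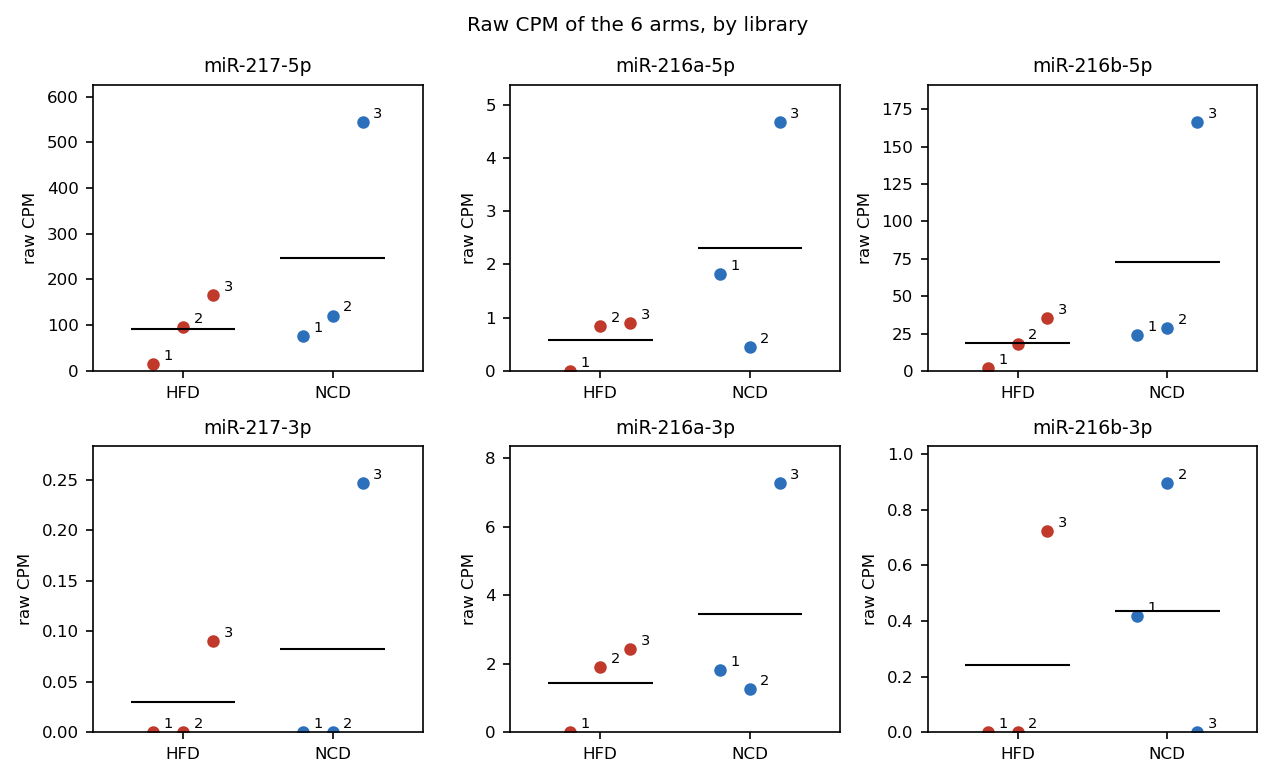
Raw CPM (linear axes, scale differs by panel) for each of the 6 arms, with HFD libraries in red and NCD libraries in blue. Numbers are replicate numbers and lines are means of 3 libraries; NCD 3 is the highest point in 5 panels, and miR-216b-3p, at 0 in NCD 3, is the exception.

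Summed over the 6 arms, the locus took a very small part of each library. It held 181, 1103 and 2263 reads in HFD 1, 2 and 3, against 752, 1702 and 5877 reads in NCD 1, 2 and 3. These were 0.00169%, 0.0117% and 0.0205% of HFD reads, against 0.0105%, 0.0152% and 0.0724% of NCD reads. The share rose with the replicate number in both diets and was lower with HFD at each number. On raw totals NCD 3 exceeded the next library, HFD 3, by 3.54-fold, and HFD 1 was 6.19-fold below the next lowest, NCD 1. On the TMM scale these gaps were 2.03-fold and 5.53-fold. The exact 95% interval was 0.00146% to 0.00196% in HFD 1 and 0.0705% to 0.0742% in NCD 3.

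By diet the share averaged 0.0113% ± 0.00939 with HFD, against 0.0327% ± 0.0344 with NCD (SD, 3 libraries each), so that the spread within NCD was larger than the difference of the means. The log2 ratio of the means was -1.53 on raw totals and -0.95 on the TMM scale. On raw totals it was -0.19 without NCD 3, where the NCD mean was 0.0129%. Without HFD 1 it was -1.02, with an HFD mean of 0.0161%. No test was made of this sum, since the members were chosen as a group.

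Set against the islet's own miR-375-3p, the order at the ends was the same. The 6 arms together gave 0.057, 0.334 and 0.882 reads per 1000 reads of miR-375-3p in HFD 1, 2 and 3, and 0.239, 0.454 and 2.45 in NCD 1, 2 and 3. The log2 ratio of the diet means was -1.30 on this scale and 0.29 without NCD 3, so here 1 library set the direction. For single arms the log2 ratio to miR-375-3p was lower in HFD than in NCD islets by 1.18 for miR-217-5p (difference HFD minus NCD -1.18). The differences were -1.92 for miR-216b-5p and -1.82 for miR-216a-3p. The value for miR-216a-3p depends on the prior count of 0.5 added to its reads, since HFD 1 had none. In two-sided exact permutation tests p was 0.5 for miR-217-5p, 0.4 for miR-216b-5p and 0.6 for miR-216a-3p (0.6 each after Benjamini-Hochberg adjustment over these 3), where 3 against 3 libraries cannot go below 0.1. Without HFD 1 the differences were -0.15, -0.63 and 0.058, listed as miR-217-5p, then miR-216b-5p, then miR-216a-3p.

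**Figure D2:**
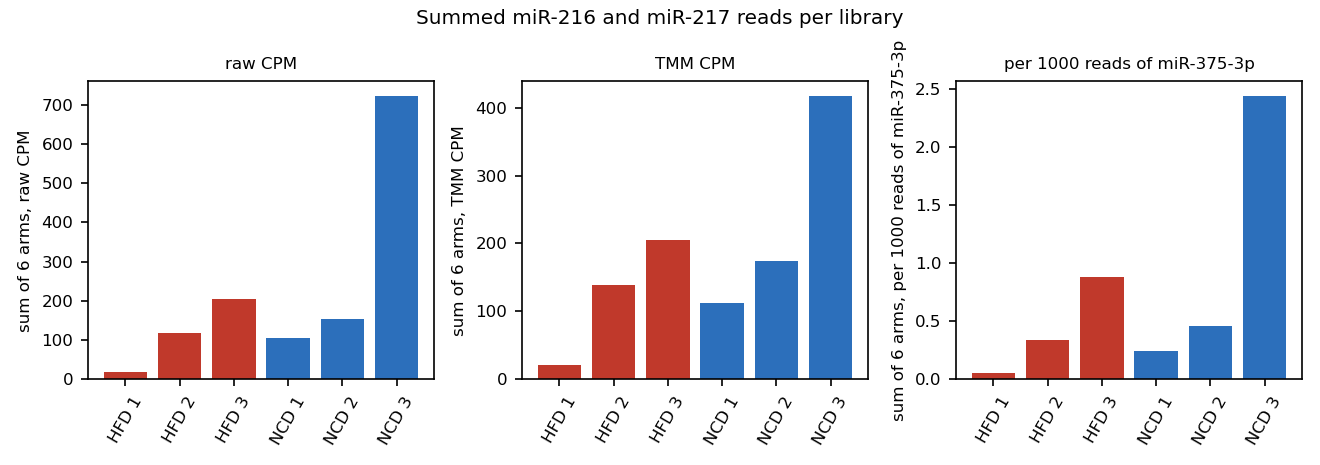
Bars show the summed reads of the 6 arms in each library, as raw CPM (left), as TMM CPM (middle) and per 1000 reads of miR-375-3p (right), with HFD in red and NCD in blue. HFD 1 is lowest and NCD 3 highest on each scale, at 16.9 and 724 raw CPM.

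The comparison of the diets asked whether the level of these arms differed between HFD and NCD islets. Of the 6 members, 3 passed the filter on low counts: mmu-miR-216a-3p, mmu-miR-216b-5p and mmu-miR-217-5p. None of the 3 passed an adjusted p of 0.05 in edgeR's quasi-likelihood test over all 406 miRNAs tested, of which 0.246% passed. In that test 0 of the 3 had an unadjusted p under 0.05, beside 41 of all 406. Other settings gave lower unadjusted p with 0 of the 3 called: without the filter edgeR gave 0.000566 for miR-216b-5p and 0.0209 for miR-217-5p, and with the replicate number as a block 0.00469 and 0.0196. Over all 16 alternatives the unadjusted p was under 0.05 in 7 for miR-216b-5p and in 3 for miR-217-5p, and for miR-216a-3p in 0 of 15. DESeq2 and limma-voom called 0 of the 3, with 0 and 1 unadjusted p under 0.05. Over all miRNAs tested, DESeq2 called 3 of 406 and limma-voom 1 of 406. Without the filter edgeR called 8 of 1011, and with the block 1 of 406. The share of all tested miRNAs under 0.05 was not counted for these other settings, so the tallies of unadjusted p have no background. The alternatives also reuse the same libraries.

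miR-217-5p averaged 99.5 ± 75.1 CPM with HFD, against 178 ± 121 CPM with NCD (SD over 3 libraries of each diet). Its log2 fold change, HFD over NCD, was -0.85 with a standard error of 0.62 (edgeR adjusted p = 0.623). miR-216b-5p averaged 19.8 ± 16.8 CPM with HFD, against 51.5 ± 38.9 CPM with NCD, and its log2 fold change was -1.39 ± 0.68 (SE; edgeR adjusted p = 0.505). It had the lowest p of the 3, an unadjusted 0.0629 by edgeR. miR-216a-3p averaged 1.58 ± 1.37 CPM with HFD, against 2.52 ± 1.47 CPM with NCD, and its log2 fold change was -0.75 ± 0.74 (SE; edgeR adjusted p = 0.681). HFD 1 had no read of miR-216a-3p, and limma-voom put its log2 fold change at -1.80.

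The fold changes of all 3 were negative, as were those of 48.5% of all tested miRNAs. The median of the 3 was -0.85, beside 0.02 over all tested. A member could pass the filter through the libraries in which it was high, so the direction of those that passed is a description of 3 rows. The diets overlapped in all 3, while they did not overlap for 15.3% of tested miRNAs.

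These values rested on NCD 3 and HFD 1. Without NCD 3 the log2 fold change was -0.15 for miR-217-5p, -0.55 for miR-216b-5p and -0.042 for miR-216a-3p. Without HFD 1 it was -0.39, -0.89 and -0.21 for the same arms in the same order. Without HFD 3, the highest HFD library, it was -1.49 for miR-217-5p, -2.20 for miR-216b-5p and -1.35 for miR-216a-3p. With library totals as the only scaling it was -1.42, -1.98 and -1.19 for the arms in that order, while the median of all tested miRNAs moved from 0.02 to -0.37. None of the 3 was called under any of these settings.

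**Figure D3:**
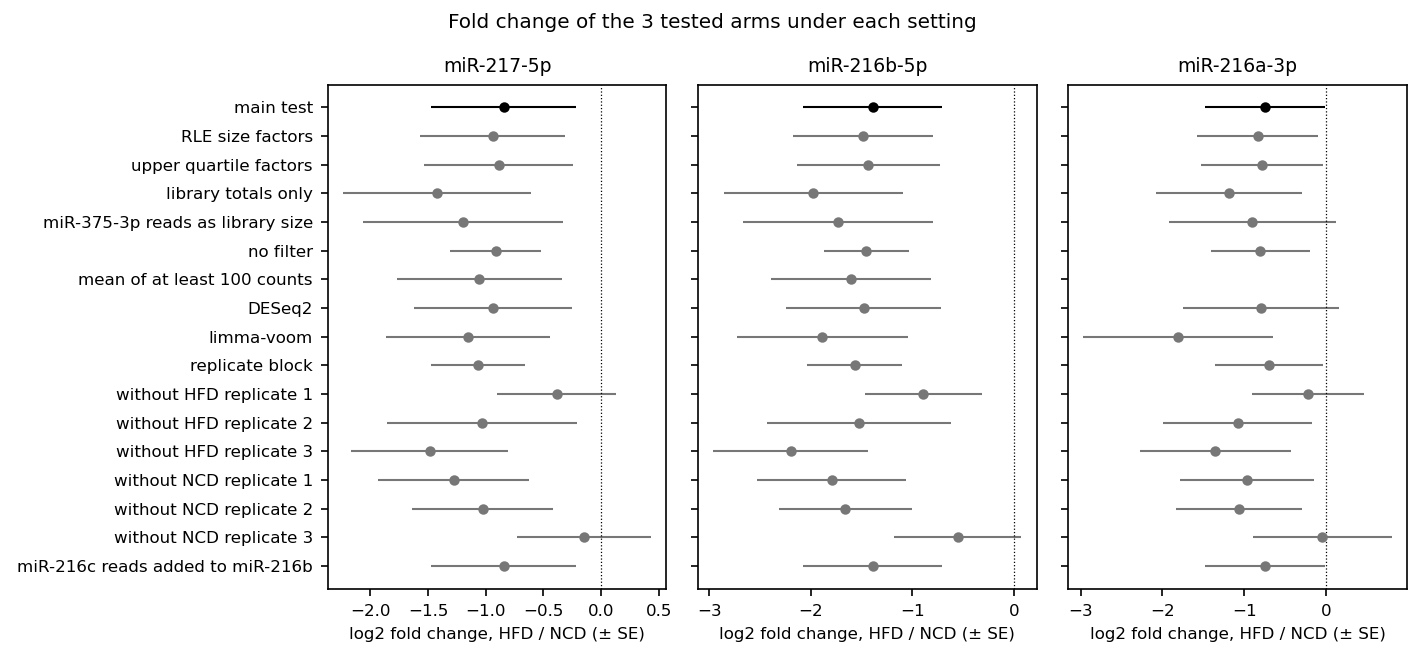
Points are log2 fold changes of HFD over NCD islets with standard errors for the 3 arms that passed the filter, under the main edgeR test (black) and each other setting (grey). All points lie below 0, and those nearest to 0 are the fits without NCD replicate 3; miR-216a-3p has no point for the mean of at least 100 counts, which it did not reach.

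The 3 tested arms were among the most variable miRNAs of these libraries. The range over the 6 libraries was 5.38 log2 units for miR-216b-5p, and 1 of the 406 tested miRNAs had a wider one. For miR-216a-3p the range was 4.42, with 5 wider, and for miR-217-5p it was 4.11, with 7 wider, where the median miRNA had 1.46. The pooled within-diet SD was 1.65 log2 units for miR-216b-5p, 1.58 for miR-216a-3p and 1.39 for miR-217-5p, against a median of 0.52. HFD 1 had no read of miR-216a-3p, so the range and SD of that arm depend on the prior count of 2 added before taking logs.

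Both ends of the range contributed. miR-216b-5p lay 3.97 log2 units lower in HFD 1 than the average of the remaining libraries, and no tested miRNA lay lower there. miR-216a-3p lay 3.62 and miR-217-5p 3.01 log2 units lower in HFD 1, with 1 and 2 tested miRNAs below them. The value of miR-216a-3p is set by the prior count, since HFD 1 had no read of it. In NCD 3, miR-216b-5p lay 2.48 log2 units above the average of the remaining libraries, with 4 miRNAs above it. miR-217-5p lay 1.92 and miR-216a-3p 1.69 units higher in NCD 3, with 13 and 20 miRNAs above them. On the TMM scale HFD 1 was lowest and NCD 3 highest for all 3, an order found in 7.88% of tested miRNAs.

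The balance of arms was examined within each hairpin, where library scaling does not enter. mir-217 gave its 5p arm almost alone: 2894 of 2895 reads in HFD and 6329 of 6331 reads in NCD islets were miR-217-5p. On the log2 scale the 5p to 3p ratio averaged 9.81 ± 1.30 with HFD, against 10.8 ± 0.65 with NCD (SD, 3 libraries each; two-sided exact permutation p = 0.5). With 0 reads of the 3p arm in 4 libraries this ratio follows the number of 5p reads. mir-216b also gave mainly its 5p arm, with 581 of 589 reads in HFD and 1845 of 1858 in NCD islets.

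mir-216a stood apart from its neighbours, since its 3p arm was the more frequent in reads pooled over libraries. miR-216a-3p made up 45 of 63 mir-216a reads in HFD, or 71.4% (exact 95% interval 58.7% to 82.1%), and 86 of 142 in NCD islets, or 60.6% (52.0% to 68.7%). It was 69.2% in HFD 2 and 73.0% in HFD 3, against 50.0% in NCD 1, 73.7% in NCD 2 and 60.8% in NCD 3, and the intervals of these libraries overlapped. The exact 95% intervals of HFD 2, NCD 1 and NCD 2 included 50%. A bias of ligation between the arms was not tested. mir-216a and mir-216b were not tested between diets, because HFD 1 held 0 and 19 reads of these hairpins and the least set for a test was 20.

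The count of miR-216b-3p is uncertain. Its sequence is the reverse complement of miR-216c-5p over all 22 bases, and the rows of both held the same number of reads in 5 of 6 libraries. These were 0 in HFD 1, 8 in HFD 3, 3 in NCD 1, 10 in NCD 2 and 0 in NCD 3. HFD 2 was the exception, with 0 reads under miR-216b-3p and 4 under miR-216c-5p. No source used here says how strand was treated in counting, so the reads may stand under both names. Some other rows shared their values too. miR-122-5p and miR-122b-3p each averaged 48.9 CPM with HFD and 299 CPM with NCD. The cause of such equal rows was not tested.

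Reads counted under miR-216b-3p, which may be antisense reads, were 10 of 330 mir-216b reads in NCD 2, or 3.03% (exact 95% interval 1.46% to 5.50%). In NCD 3 they were 0 of 1353 (exact 95% interval 0% to 0.272%). The other antisense arm, miR-216c-3p, had 7 reads in NCD 3 and at most 2 in any other library.

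The share of miR-216b-5p relative to miR-217-5p was compared after the counts had been seen. Of the reads of these arms, miR-216b-5p made up 10.5%, 15.97% and 17.6% in HFD 1, 2 and 3, against 23.8%, 19.1% and 23.4% in NCD 1, 2 and 3. Each HFD library lay below each NCD library, and the diets likewise did not overlap for 15.3% of single tested miRNAs. Ratios of other miRNAs were not examined in this way. The nearest pair, HFD 3 with an exact 95% interval of 16.0% to 19.2% and NCD 2 with 17.3% to 21.1%, could not be told apart by counting error. The mean was 14.7% ± 3.72 with HFD, against 22.1% ± 2.59 with NCD (SD, 3 libraries each). The log2 ratio of miR-216b-5p to miR-217-5p was lower in HFD islets, with a difference HFD minus NCD of -0.74 and an exact two-sided permutation p of 0.1. That is the smallest p that 3 against 3 libraries can give, so the comparison could not pass. Without HFD 1, whose 19 reads of miR-216b-5p were the fewest, the difference was -0.49.

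**Figure D4:**
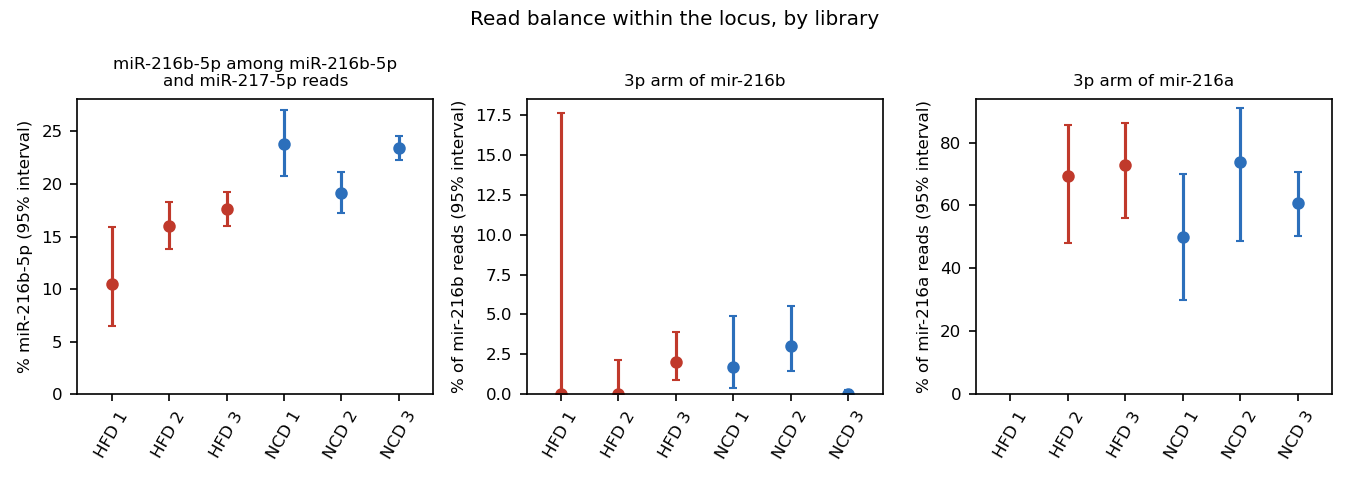
Points are shares of reads in each library with exact 95% binomial intervals, with HFD in red and NCD in blue: miR-216b-5p among the reads of miR-216b-5p and miR-217-5p (left), reads counted under miR-216b-3p, which may be antisense, among mir-216b reads (middle) and the 3p arm among mir-216a reads (right). The left panel shows HFD libraries at 10.5% to 17.6% and NCD libraries at 19.1% to 23.8%; HFD 1 has no point at the right because it held no mir-216a read.

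Lists of miRNAs marking other cells were set beside the 6 arms, as summed CPM in each library. The arms of the locus summed to 20.2 to 206 CPM in HFD and 112 to 418 CPM in NCD libraries. On the same TMM scale 0 of the other 9 lists was lowest in HFD 1 and 0 was highest in NCD 3. On raw totals the islet endocrine and endothelial lists were lowest in HFD 1, and the epithelial and erythroid lists were highest in NCD 3, so the order of these lists depended on the scaling. On either scale 0 of the 9 had both ends in common with the arms of the locus, and 0 held a miRNA called between the diets. The part of other cells in the values of the locus was not tested.

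The islet endocrine list, led by miR-375-3p, miR-7a-5p and miR-7b-5p, had all 12 members tested, 9 with a positive fold change and a median log2 fold change of 0.14. It summed to 496399 to 590593 CPM in HFD and 286494 to 642580 CPM in NCD libraries, lowest in NCD 3 on this TMM scale. On raw totals HFD 1 was lowest, with 477269 raw CPM, against 496124 raw CPM in NCD 3. The log2 ratio of NCD 3 to the mean of the remaining libraries was -1.02 on the TMM scale and -0.067 on raw totals. The list of miRNAs shared by acinar and islet cells consists of the miR-148a and miR-802 arms and had 3 of 4 members tested, 2 positive, and a median of 0.40. miR-148a-3p, which is abundant in both compartments, led it with 34.0%, 33.5% and 27.5% of raw reads in HFD 1, 2 and 3, against 22.9%, 29.5% and 26.3% in NCD 1, 2 and 3. It was thus highest in HFD 1, the library with fewest miR-217-5p reads. Nearly all of this list's sum was miR-148a-3p, so the sum describes that miRNA. In the same list miR-802-5p, with few reads, went the other way. It was lowest in HFD 1, at 0.11 CPM, and highest in NCD 3, at 5.90 CPM, on the TMM scale. The list of duct and other epithelium, led by miR-200a-3p, miR-200b-3p and miR-200c-3p, had all 8 members tested, 5 positive, with a median of 0.23. It summed to 26320 to 33526 CPM in HFD and 21537 to 26808 CPM in NCD libraries, while on raw totals it was highest in NCD 3, with 39588 raw CPM.

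As a sum, no vessel, blood or connective tissue list was both lowest in HFD 1 and highest in NCD 3 on either scale. The endothelial list, led by miR-126a-3p, had 3 of 4 members tested and all 3 negative (median -0.73, sums of 305 to 451 CPM in HFD and 359 to 771 CPM in NCD). On raw totals it was lowest in HFD 1, with 267 raw CPM. miR-126a-5p and miR-126b-3p in it had identical values, so its 3 negative members are not 3 independent rows. The leukocyte list, with miR-142a-5p the highest, had 3 of 5 tested and all 3 negative (median -0.82), at 6.18 to 13.3 CPM in HFD and 13.0 to 30.4 CPM in NCD. The erythroid list, led by miR-451a, had 2 of 4 tested, both negative (median -0.22), at 47.8 to 155 CPM in HFD and 39.8 to 143 CPM in NCD. On raw totals it was highest in NCD 3, with 202 raw CPM. The fibroblast and smooth muscle list, led by miR-143-3p, had all 6 tested with 1 positive (median -0.31), at 1449 to 5237 CPM in HFD and 1647 to 3238 CPM in NCD. Most of this sum was miR-143-3p. Within the list miR-145a-5p was lowest in HFD 1, at 4.45 CPM, and highest in NCD 3, at 15.4 CPM. None of its other members had both ends there on this scale.

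As sums, the liver and striated muscle lists peaked in another library than the arms of the locus together. The liver list, led by miR-192-5p and miR-122-5p, had 3 of 4 tested and all 3 negative (median -0.078), at 629 to 710 CPM in HFD and 530 to 1754 CPM in NCD. The striated muscle list, led by miR-1a-3p, had 2 of 3 tested, both negative (median -2.21), at 14.2 to 62.1 CPM in HFD and 52.8 to 128 CPM in NCD. Both were highest in NCD 1 on either scale, where miR-217-5p had the lowest NCD level.

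**Figure D5:**
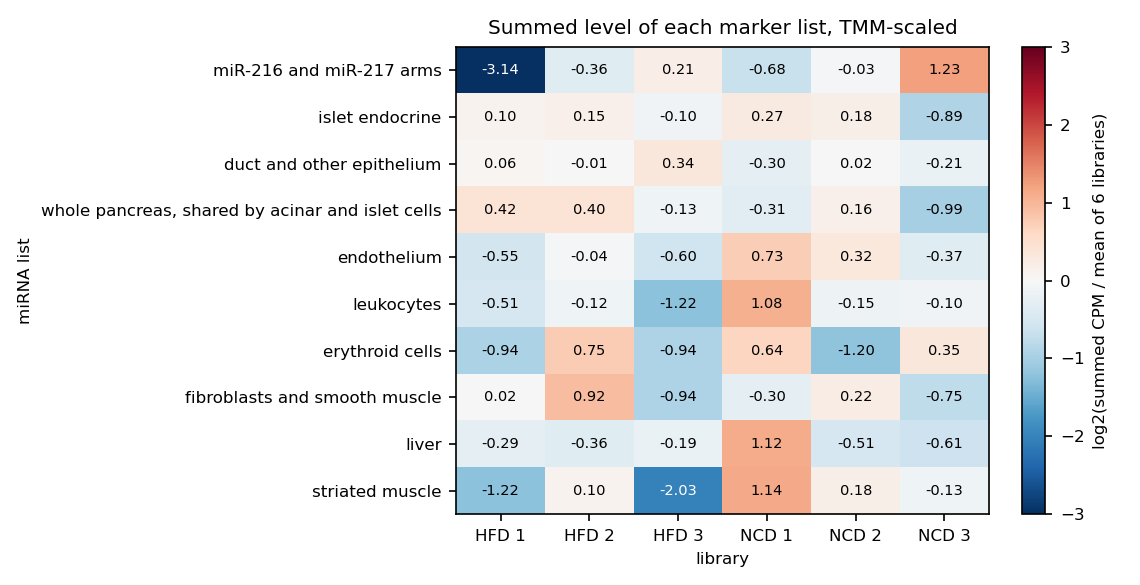
Each cell gives the log2 ratio of a list's summed TMM-scaled CPM in 1 library to its mean over the 6 libraries, with HFD libraries left of NCD libraries. The miR-216 and miR-217 row runs from -3.14 in HFD 1 to 1.23 in NCD 3, and the islet endocrine row is lowest in NCD 3 at -0.89, an end that moves to HFD 1 on raw totals.

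Rows whose profile over the 6 libraries was nearest to the mean centred log2 profile of the 3 tested arms were then sought among 237 other miRNAs with at least 10 CPM on average. The nearest 5 were miR-145a-5p, a member of the fibroblast and smooth muscle list, miR-129-2-3p, miR-129-1-3p, miR-342-3p and miR-320-3p. By name miR-129-2-3p and miR-129-1-3p are of the same family, so they may not be independent rows. That family also has a member in the islet endocrine list, which was highest in NCD 1, not in NCD 3. Their root mean square differences were 0.96 to 1.01 log2 units, where the median candidate had 1.50. The 3 arms lay 0.25 to 0.26 from their own mean, which they set. All 5 were lowest in HFD 1 and highest in NCD 3, as the choice favours.

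Their ranges were narrower than those of the 3 tested arms. miR-129-1-3p, the most abundant, had 452, 804 and 952 CPM in HFD 1, 2 and 3, against 790, 495 and 2569 CPM in NCD 1, 2 and 3. The highest library was 5.68-fold above the lowest for miR-129-1-3p, 5.90-fold for miR-129-2-3p and 6.29-fold for miR-342-3p. It was 3.46-fold above for miR-145a-5p and 3.27-fold above for miR-320-3p, against 17.4-fold for miR-217-5p on the same scale. None of the 5 passed the edgeR test between the diets, with adjusted p from 0.48 to 0.678.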

How the data were processed

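The authors' deposited table holds raw read counts per mature miRNA, per the file headers, beside a TPM column for each library. The deposited TPM values equalled CPM on raw totals, with relative differences of at most 4.61e-09, and were not used further. Libraries were made with a small RNA kit from total RNA, per the labels' protocols; no source used here gives the aligner, counter or miRNA release. Ligation-based libraries favour some ends, so levels of 1 miRNA between libraries are more comparable than levels of different miRNAs.

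Counts were tested with edgeR 4.0.16 in R 4.3.3: filterByExpr with a minimum count of 10, TMM factors, estimateDisp, glmQLFit without the legacy option and glmQLFTest, with diet as the term and Benjamini-Hochberg adjustment over all 406 miRNAs tested. DESeq2 1.42.0 and limma-voom (limma 3.58.1) were alternatives. Ratios used a prior count of 0.5 in exact permutation tests, and centred profiles a prior count of 2. The steps were tested on simulated counts. Libraries of 1 diet were checked for copies: their counts differed beyond sampling noise, with a chi-square per degree of freedom of 464 or more.

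The members and lists were chosen with earlier results of these data known. Named miRNAs were the 6 members, the 5 nearest profiles, rows complementary to a member or within 2 mismatches of it over at least 18 bases, and up to 3 leading miRNAs of each list.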

Additional observations from a re-analysis of the deposited data

How the results depend on the processing

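The fold changes of the 3 tested arms stayed negative and uncalled under every alternative run. Log2 values ran from -1.49 to -0.15 for miR-217-5p (16 alternatives, lowest adjusted p = 0.372), from -2.20 to -0.55 for miR-216b-5p (16 alternatives, 0.0636) and from -1.80 to -0.042 for miR-216a-3p (15 alternatives, 0.524). The count of called miRNAs, 1 in the main test, was 0 with library totals only, 0 with miR-375-3p reads as the library size, 8 without a filter, 3 with DESeq2, and 0 to 4 when 1 library was left out. The cause was not tested. With 1 library left out, the log2 ratio of the summed share ranged from -2.29 to -0.19, the mir-217 arm difference from -1.47 to -0.23 and the diet difference in the log2 ratio of miR-216b-5p to miR-217-5p from -0.90 to -0.49. Relative to miR-375-3p it gave -2.05 to -0.15 for miR-217-5p, -2.95 to -0.63 for miR-216b-5p and -2.99 to 0.058 for miR-216a-3p, which reversed without HFD 1.

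With the replicate number as a block, the log2 fold change was -1.07 for miR-217-5p, -1.57 for miR-216b-5p and -0.69 for miR-216a-3p, with edgeR adjusted p of 0.372, 0.272 and 0.685, and 1 miRNA was called. Deviations of libraries with the same number correlated at 0.17, -0.24 and 0.35 across miRNAs. No correlations of libraries with different numbers were at hand as a baseline, so these values cannot decide whether the numbers pair the libraries. The summed share of the locus, miR-217-5p and miR-216b-5p rose with the number in both diets and were lower with HFD at each number. miR-216a-3p was not, with 1.91 raw CPM in HFD 2 against 1.25 raw CPM in NCD 2. The main test left the numbers out, and pairing stays undecided. Adding the miR-216c reads to miR-216b, an alternative chosen after seeing the data, left the value of miR-216b-5p at -1.39. Summing the marker lists on raw totals was likewise chosen after seeing the data. Counts under about 20 reads limit what can be said of the 3p arms of mir-216b and mir-217 and of both mir-216a arms.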

Other observations

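On the TMM scale miR-802-5p, a miRNA of pancreas and liver, was also lowest in HFD 1 and highest in NCD 3, as were 7.88% of tested miRNAs. It was counted 1, 7 and 14 times in HFD 1, 2 and 3, against 2, 13 and 83 times in NCD 1, 2 and 3, and was singled out after its values were seen. Its log2 fold change, HFD over NCD, was -1.89 with a standard error of 0.89, and its edgeR adjusted p of 0.48 missed the threshold. miR-802-3p had 4, 0 and 5 reads in HFD 1, 2 and 3, and 1, 1 and 29 reads in NCD 1, 2 and 3. The other tested members of the list it came from had fold changes of the opposite sign: the log2 fold change was 0.56 for miR-148a-3p, which was highest in HFD 1, and 0.40 for miR-148a-5p, with edgeR adjusted p of 0.582 and 0.627.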
